A study of Mus musculus with 4 samples.

Results

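The proteasome genes of differentiating mouse erythroid cells were described across 4 arrays. A gene was taken where a feature of the array was annotated to exactly 1 gene whose symbol starts with Psma, Psmb, Psmc, Psmd, Psme, Psmf or Psmg and a number, and the immunoproteasome genes Psmb8, Psmb9 and Psmb10 were left aside. This gave 53 features for 47 genes, out of 28944 features and 19938 genes tested. Of the 47 genes, 45 encode proteins of the proteasome, its activators, its inhibitor or its assembly factors. Psmc3ip, a meiotic recombination factor, and Psme3ip1, a nuclear protein that binds the activator Psme3, carry a matching symbol and were kept apart.

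The arrays held 2 groups with 2 cultures each, lettered A and B, 1 array per culture. MEL cells are a mouse erythroleukemia line, here grown with serum and puromycin. Its differentiation ran for 48 hours and was induced with 17b-estradiol. The ES-EP line consists of erythroid progenitors that came from embryonic stem cells. Its expansion medium held erythropoietin (Epogen), human insulin-like growth factor, dexamethasone and stem cell factor. The cultures measured had then spent 24 hours in Epogen, insulin and mifepristone, a glucocorticoid antagonist. Each group is 1 cell line, and line, medium, inducer and hours changed together, so their parts in a difference cannot be told apart. Cultures before differentiation were not analysed here. A lower value in such bulk RNA can mean fewer cells that hold the transcript or less of it per cell, and these cannot be told apart.

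The values are on a log2 scale after RMA, so a difference of 1 is 2-fold, and differences are given as MEL minus ES-EP. A gene was called where limma gave an adjusted p below 0.05, with Benjamini-Hochberg adjustment over all 28944 features. A gene with several features is represented by the brightest. The duplicates correlated at r = 0.997 in MEL and 0.998 in ES-EP across features, and arrays of different groups at 0.948 to 0.949. The erythroid marker genes, 10 of 12 measured, had a median of 10.78 on the MEL side and 11.40 on the ES-EP side. Against 36.9% of all genes lower in MEL and 21.8% higher, 8 of these 10 were lower and 2 higher. Slc4a1, the anion exchanger of the red cell membrane, stood out among them at 7.04 in MEL against 12.48. The medians of the myeloid, mast cell, lymphoid and pluripotency markers lay at 3.95 to 5.17 for MEL and at 4.73 to 5.36 for ES-EP, below the array medians of 5.78 to 5.91. Within the mast cell list Ms4a2, part of an IgE receptor, reached 7.45 in ES-EP against 3.93 in MEL. Of 5 megakaryocyte markers 3 were higher in MEL, against 21.8% of all genes, and Pf4 reached 8.34 there against 3.96. Itga2b was at 9.12 against 6.89, while Ppbp was below the array medians in both groups, at 4.47 and 3.80. Gp9 and Vwf were not called. The part of such markers in the differences below was not tested.

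The proteasome is the protease that degrades proteins marked with ubiquitin. Its core particle is a barrel of alpha and beta rings whose catalytic sites face inward, and a regulatory particle, made of a base and a lid, binds ubiquitin chains, removes them, unfolds the substrate with a ring of ATPases and feeds it into the core. Dedicated chaperones assemble the core and the base, and other caps can open the core without ubiquitin. Red cell precursors depend on ubiquitin and the proteasome to clear excess globin chains and to remodel their proteins while they mature.

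Most proteasome genes had lower values in MEL. Of the 47 genes 32 were called lower, which is 68.1%, against 36.9% of all genes, and 3 were called higher, against 21.8% of all genes. Over the 45 proteasome genes alone the counts were 30 lower and 3 higher. The differences were small: the median was -0.40, or -0.26 relative to the median of all genes, and 14 genes were lower by at least 1.5-fold. At 2-fold, 3 of the 47 were lower, Psmc3ip among them, against 4.93% of all genes, and 0 were higher, against 7.38% (limma, with 0 also at an unadjusted p under 0.05). The 2 arrays of MEL and the 2 of ES-EP did not overlap for 41 of the 47 genes, which is near the 80.2% of all genes of which this held.

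**Figure D1:**
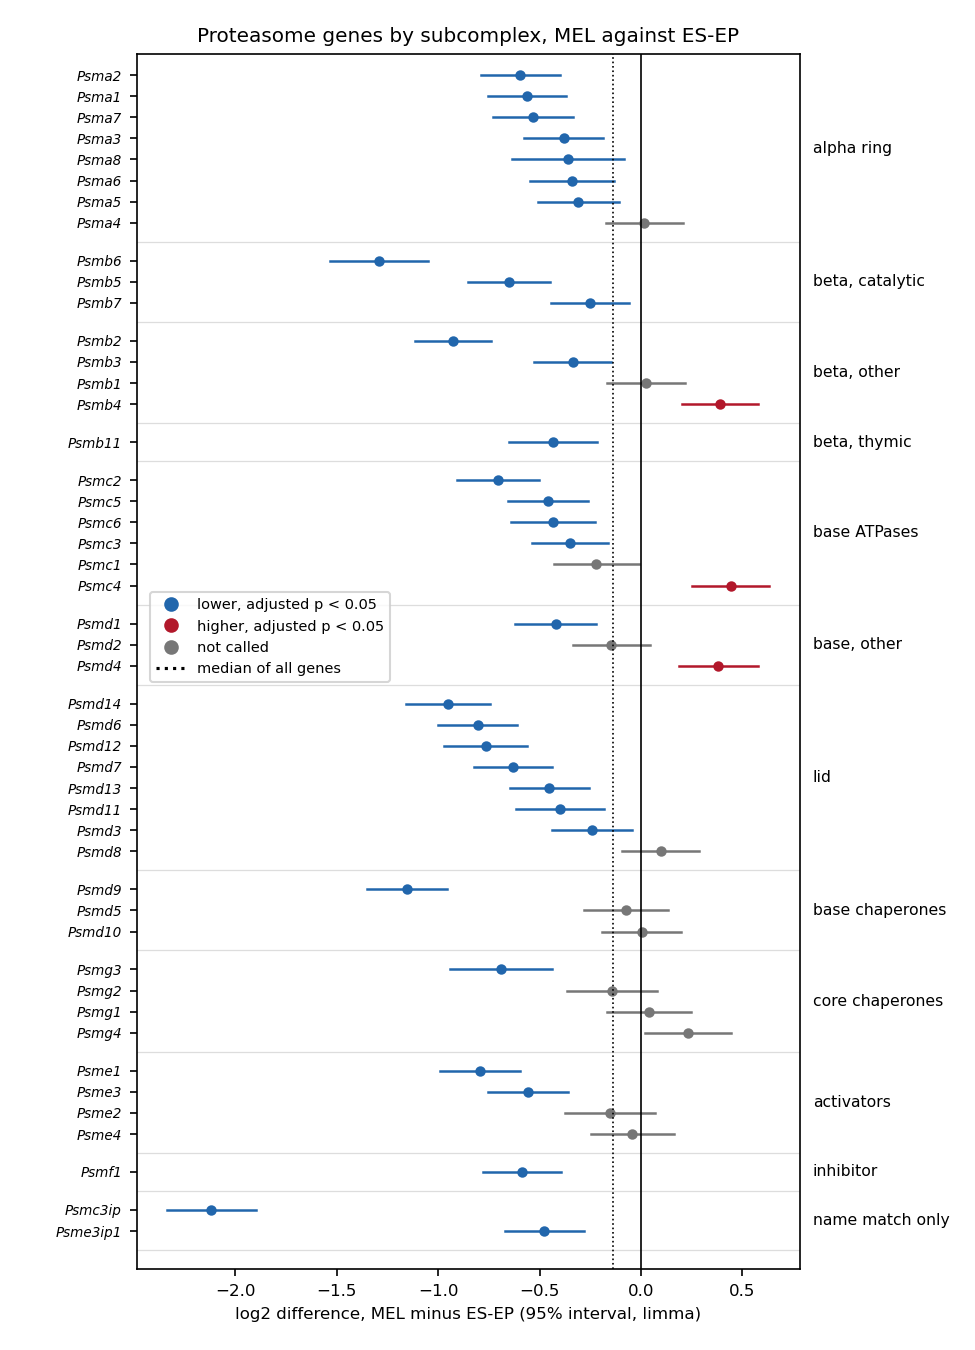
Log2 difference, MEL minus ES-EP, for the 47 genes on the x axis, with the gene symbols on the y axis grouped by subcomplex. Points are limma estimates from 2 arrays per group, bars their 95% intervals, the solid line marks 0 and the dotted line the median of all genes, -0.14. Called genes lie to the left in 32 cases and to the right in 3, Psmb4, Psmc4 and Psmd4.

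In the alpha ring, which gates the entry to the core, 7 of 8 genes were lower in MEL and 0 were higher (limma, 0 also at an unadjusted p under 0.05). Of all genes 36.9% were lower and 21.8% higher. Psma2 was at 10.39 and 10.43 on the MEL arrays and at 11.04 and 10.97 on the ES-EP arrays, a difference of -0.59 ± 0.08 (SE, n = 2 per group, limma adjusted p = 7.64e-04). Its groups did not overlap. Psma1 and Psma7 were lower by similar amounts, -0.56 and -0.53, and Psma3, Psma6 and Psma5 by -0.38, -0.34 and -0.31. Psma4 was the exception among the broadly expressed alpha genes. It was at 10.79 and 10.84 in MEL and at 10.79 and 10.80 in ES-EP cells, and its 95% interval ran from -0.17 to 0.21. Psma8, a testis counterpart of Psma7, was dim in both groups, at 4.54 and 4.86 in MEL and 5.07 and 5.05 in ES-EP cells, below the array medians. Its call was lost after quantile normalization, after cyclic loess and without MEL culture A, ES-EP culture A or ES-EP culture B, with adjusted p up to 0.453. After quantile normalization 4 alpha genes were called lower, and without ES-EP culture A 3. The call of Psma5 was lost under each other scaling and without ES-EP culture A (adjusted p = 0.109) or B (adjusted p = 0.0787). That of Psma6 was lost after quantile normalization, median centring and without ES-EP culture A (adjusted p = 0.123), and that of Psma3 without ES-EP culture A (adjusted p = 0.0604).

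All 3 catalytic genes of the constitutive core were called lower, against 36.9% of all genes, by unequal amounts. Psmb6, whose product carries the caspase-like site, was at 9.84 and 9.96 in MEL and at 11.29 and 11.09 in ES-EP cells. The groups lay more than 1.1 apart at their nearest arrays, and the difference was -1.29 ± 0.10 (SE, n = 2 per group), 2.45-fold lower in MEL (limma adjusted p = 4.53e-05), the largest difference among the 45 proteasome genes. Psmb5, which carries the chymotrypsin-like site, was at 9.32 and 9.34 in MEL and at 10.04 and 9.92 in ES-EP cells, 1.57-fold lower (-0.65 ± 0.09, limma adjusted p = 6.11e-04). Psmb7, which carries the trypsin-like site, was at 11.20 and 11.26 in MEL and at 11.46 and 11.50 in ES-EP cells. Its small difference of -0.25 ± 0.08 (SE, n = 2 per group, limma adjusted p = 0.0335) was not called after quantile normalization (-0.10, adjusted p = 0.243), after median centring or cyclic loess, nor without MEL culture A (-0.22, adjusted p = 0.0673), ES-EP culture A (-0.27, adjusted p = 0.138) or ES-EP culture B (-0.23, adjusted p = 0.189).

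The 4 other beta genes, whose products hold the ring together and have no active site of their own, went separate ways. Psmb2 was at 10.43 and 10.45 in MEL and at 11.38 and 11.36 in ES-EP cells, 1.90-fold lower (-0.93 ± 0.08, SE, n = 2 per group, limma adjusted p = 7.04e-05). Psmb4, by contrast, was higher in MEL, at 11.49 and 11.51 against 11.11 and 11.12 (0.39 ± 0.08, limma adjusted p = 0.00509), a call kept under its 13 alternatives other than the 1.5-fold criterion, which it did not meet. Psmb3 was lower by -0.34, a call lost after quantile normalization, after median centring and without ES-EP culture A (adjusted p = 0.0692) or B (adjusted p = 0.0622). Psmb1 differed by 0.02 with a 95% interval of -0.17 to 0.22. Psmb11, the thymus form of the chymotrypsin-like subunit, was dim, at 5.57 and 5.42 in MEL and 5.97 and 5.89 in ES-EP cells, and was called lower (-0.43, limma adjusted p = 0.00602).

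**Figure D2:**
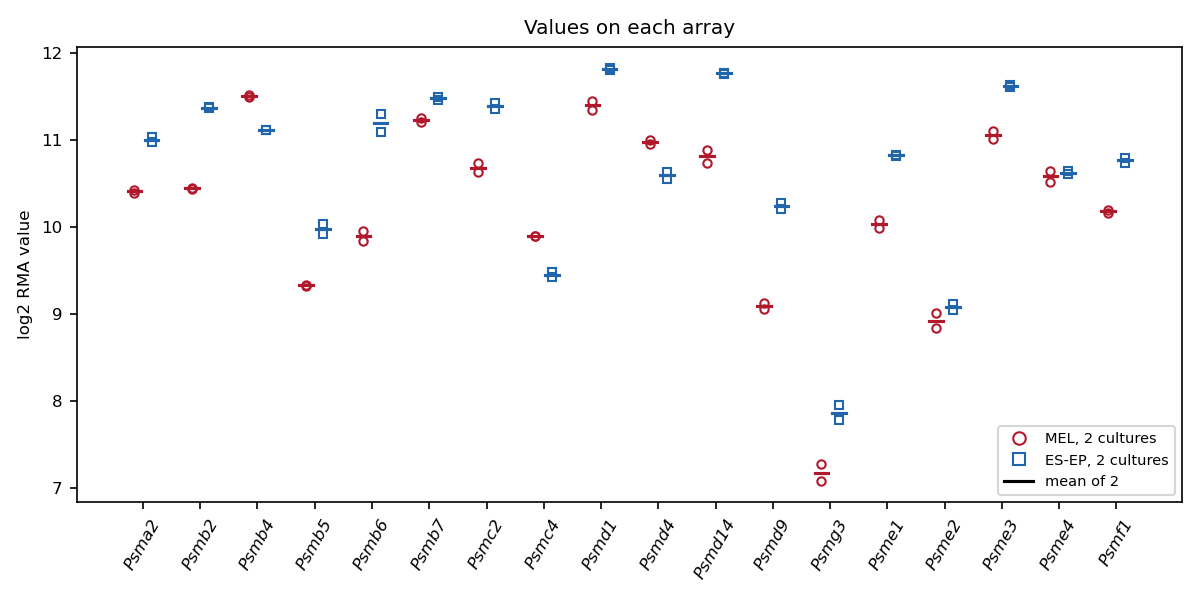
Log2 RMA value on each array for 18 proteasome genes on the x axis. Open circles are the 2 MEL cultures, open squares the 2 ES-EP cultures and short lines their means. The circles lie above the squares for Psmb4, Psmc4 and Psmd4 and below them for the other genes except Psme4, where they overlap. Heights of different genes are not comparable, since each feature has its own probes.

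Among the 6 ATPases of the base, the ring that unfolds substrates, 4 were lower and 1 was higher. The shares of all genes were 36.9% and 21.8%. Psmc2 was at 10.63 and 10.74 in MEL and at 11.42 and 11.36 in ES-EP cells, 1.63-fold lower (-0.71 ± 0.09, SE, n = 2 per group, limma adjusted p = 4.10e-04). Psmc5, Psmc6 and Psmc3 were lower by -0.46, -0.43 and -0.35. The call of Psmc3 was lost after quantile normalization, after median centring and without ES-EP culture A (adjusted p = 0.0549) or B (adjusted p = 0.06). Psmc4 went the other way, at 9.89 and 9.90 in MEL and at 9.48 and 9.43 in ES-EP cells (0.44 ± 0.08, limma adjusted p = 0.00295), the largest difference in that direction among the 47 genes. Set against Psmc5, a choice made after the values were seen, the log2 ratio of Psmc4 to Psmc5 was -0.57 and -0.60 in MEL and -1.50 and -1.47 in ES-EP cells, so these ATPase transcripts changed unequally between the systems. The 2 features of Psmc1 disagreed in size. The brighter differed by -0.22 (limma adjusted p = 0.0708) and the other by -0.68 (limma adjusted p = 3.72e-04). Whether the brighter lies at the gene itself was not checked. The mean of both gave -0.45, a call of lower (limma adjusted p = 0.00248). Psmc1 was also called lower with an intensity trend in the prior and with dim features left out. Under each of these settings 5 ATPases were lower.

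The 3 further base genes split. Psmd1, a scaffold of the base, was at 11.34 and 11.45 in MEL and at 11.81 and 11.83 in ES-EP cells (-0.42 ± 0.09, SE, n = 2 per group, limma adjusted p = 0.00469). Psmd2, the other large scaffold, differed by -0.15, with a 95% interval of -0.34 to 0.04, and its second feature by -0.18. It was not called as deposited, but was called lower with an intensity trend in the prior (limma adjusted p = 0.00928). Psmd4, a receptor for ubiquitin chains, was higher in MEL, with a mean of 10.98 ± 0.03 against 10.59 ± 0.05 (SD, n = 2), a difference of 0.38 ± 0.08 (SE, limma adjusted p = 0.00656). Its groups did not overlap, but without ES-EP culture B the call was lost (0.34, adjusted p = 0.0618).

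The lid had the lowest median difference among the subcomplexes with more than 3 genes, -0.54. Of its 8 genes 7 were lower and 0 higher (limma, 0 also at an unadjusted p under 0.05, and 1 higher after quantile normalization, Psmd8). Against this stood 36.9% lower and 21.8% higher among all genes. Psmd14, the deubiquitinase that removes ubiquitin chains from substrates before they enter the core, was at 10.74 and 10.88 in MEL and at 11.76 and 11.77 in ES-EP cells, 1.94-fold lower (-0.95 ± 0.09, SE, n = 2 per group, limma adjusted p = 1.01e-04). Psmd7, its partner in a heterodimer, was lower by -0.63. The structural lid genes Psmd6 and Psmd12 were lower by -0.81 and -0.77, and Psmd13 and Psmd11 by -0.45 and -0.40. Psmd3 was at the edge (-0.24, limma adjusted p = 0.0425), and its call was lost under each other scaling and without any 1 of the 4 cultures. Psmd8 differed by 0.10 as deposited, with a 95% interval of -0.09 to 0.28.

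The chaperones that assemble the particle had a median difference of -0.08, above that of all genes. Lower were 2 of 7, or 28.6%, a share near the 36.9% of all genes. The count higher was 0, against 21.8% of all genes (limma, 1 higher at an unadjusted p under 0.05). Psmd9, one of the 3 base chaperones in this set, was at 9.06 and 9.13 in MEL and at 10.21 and 10.28 in ES-EP cells. It was 2.22-fold lower in MEL (-1.15 ± 0.08, SE, n = 2 per group, limma adjusted p = 3.02e-05). The other base chaperones in this set had overlapping groups. Psmd5 differed by -0.08 (95% interval -0.28 to 0.13) and Psmd10, also known as gankyrin, by 0.00 (-0.19 to 0.20). Of the 4 core chaperones Psmg3 was lower, at 7.28 and 7.08 in MEL against 7.96 and 7.78 in ES-EP cells (-0.69 ± 0.11, limma adjusted p = 0.00129). Its partner in a heterodimer, Psmg4, was at 7.09 and 7.22 in MEL against 6.97 and 6.88 in ES-EP cells. The difference of 0.23 was not called (limma adjusted p = 0.0624). It was called after median centring, after cyclic loess and with dim features left out (limma adjusted p of 0.0349 to 0.0467). After quantile normalization it fell to 0.06 (limma adjusted p = 0.49). Leaving out 1 culture at a time gave 0.16 to 0.30. Psmg1 and Psmg2, the second pair, differed by 0.04 and -0.14 and were not called.

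Of the 4 activator genes 2 were lower and 0 higher (limma, 0 also at an unadjusted p under 0.05). With 36.9% of all genes lower and 21.8% higher, counts among 4 genes do not set the activators apart. Psme1 and Psme2 encode the subunits of the interferon-inducible cap. Psme1 was at 10.08 and 9.99 in MEL and at 10.82 and 10.83 in ES-EP cells, 1.73-fold lower (-0.79 ± 0.08, SE, n = 2 per group, limma adjusted p = 1.97e-04). Psme2 was at 8.84 and 9.02 in MEL and at 9.12 and 9.04 in ES-EP cells, a difference of -0.15 that was not called (95% interval -0.38 to 0.07). A further feature shared by Psme2 and Psme2b was not used. Psme3, whose product caps the core in the nucleus, was at 11.02 and 11.11 in MEL and at 11.61 and 11.63 in ES-EP cells (-0.56 ± 0.08, limma adjusted p = 0.00113). Psme4, the large single-chain activator, was at 10.52 and 10.64 in MEL and at 10.61 and 10.65 in ES-EP cells, with overlapping groups and a 95% interval of -0.25 to 0.16. Psmf1, first described as an inhibitor of the core, was lower in MEL, at 10.17 and 10.20 against 10.74 and 10.80 (-0.59 ± 0.08, limma adjusted p = 7.91e-04).

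Genes whose products work as partners were set against each other on each array, as log2 ratios. Psmd9 and Psmd10 were paired only as base chaperones, and Psma8 and Psma7 as counterparts, so their ratios are not of partners. The ratio of Psme1 to Psme2 was 1.24 and 0.97 in MEL and 1.70 and 1.79 in ES-EP cells, so it was lower in MEL by 0.64 on average. The ratio of Psmg3 to Psmg4 was 0.19 and -0.14 in MEL and 0.99 and 0.90 in ES-EP cells, and that of Psmd9 to Psmd10 was -1.05 and -1.03 in MEL and 0.05 and 0.18 in ES-EP cells. The ratio of Psmg1 to Psmg2 went the other way, at -0.20 and -0.28 in MEL and -0.50 and -0.34 in ES-EP cells, a shift of 0.18. The groups did not overlap in these 4 ratios, and they overlapped in that of Psma8 to Psma7, which rests on the dim Psma8. Among single genes 80.2% did not overlap, and no such share was computed for ratios, so non-overlap does not set these pairs apart. With 4 arrays there are 3 splits, so an exact two-sided permutation test of such a ratio cannot go below p = 0.333, and none is given.

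The constitutive catalytic genes were also compared with the immunoproteasome genes that replace them when cells meet interferon. Psmb8, the counterpart of Psmb5, was at 7.53 and 7.64 in MEL and at 5.08 and 5.18 in ES-EP cells, and was called higher (limma adjusted p = 1.03e-06). The ES-EP values lay below the array medians and cannot be told from background without detection calls, so no fold is given. Psmb9, the counterpart of Psmb6, was at 7.65 and 7.60 in MEL against 7.32 and 7.34 in ES-EP cells (0.29 ± 0.08, limma adjusted p = 0.0182), a call lost after quantile normalization (0.16, adjusted p = 0.135) and without ES-EP culture A (adjusted p = 0.12) or B (adjusted p = 0.0933). Psmb10, the counterpart of Psmb7, was lower, at 6.82 and 7.04 against 7.74 and 7.72 (-0.80 ± 0.10, limma adjusted p = 4.49e-04). The log2 ratio of Psmb8 to Psmb5 was -1.79 and -1.70 in MEL and -4.96 and -4.74 in ES-EP cells, where it rests on those dim Psmb8 values, so the size of its shift is not measured. The ratio of Psmb9 to Psmb6 shifted by 1.59 and that of Psmb10 to Psmb7 by -0.55, the opposite way. A shift shows unequal change within an array and says nothing of which subunit is the more abundant.

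**Figure D3:**
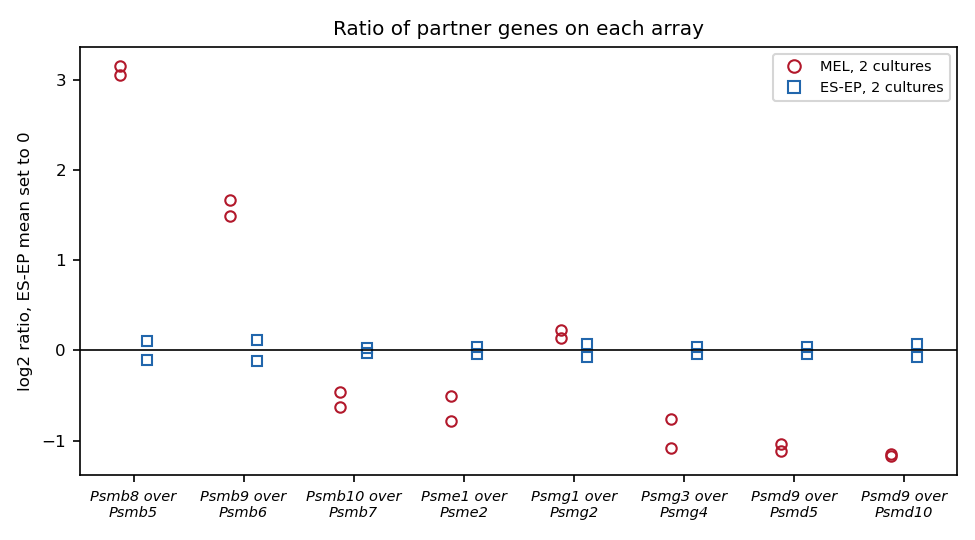
Log2 ratio of paired genes on each array, with the mean of the 2 ES-EP arrays set to 0. Circles are the 2 MEL and squares the 2 ES-EP cultures. The circles lie above the squares for Psmb8 over Psmb5, where Psmb8 was too dim in ES-EP cells for the distance to be read as a size. They lie near 1.59 for Psmb9 over Psmb6 and near 0.18 for Psmg1 over Psmg2. They lie below 0 for the ratios of Psmb10, Psme1, Psmg3 and Psmd9 to the genes paired with them.

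The promoters of the 5 proteasome genes with the lowest differences among those with an entry, and of the 3 genes that were higher, are shown here, because genes of 1 complex differed in both directions. The sequences are from RefSeq, build GRCm38.p6, and cover the 250 bases before the start of the gene, read 5′ to 3′ on the strand of the gene. Of the 47 genes 39 had an entry in the promoter table. Capitals mark the letters TGACNNNGC, a core of the antioxidant response element that Nfe2l1 and its relatives bind together with small Maf proteins, searched on both strands.
Psmb6, chr11:70525107-70525356, plus strand: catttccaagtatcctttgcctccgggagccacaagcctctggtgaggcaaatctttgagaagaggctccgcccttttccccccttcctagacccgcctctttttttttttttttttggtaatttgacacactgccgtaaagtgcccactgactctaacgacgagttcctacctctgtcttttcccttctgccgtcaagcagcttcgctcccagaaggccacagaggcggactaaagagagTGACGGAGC
Psmd9, chr5:123227940-123228189, plus strand: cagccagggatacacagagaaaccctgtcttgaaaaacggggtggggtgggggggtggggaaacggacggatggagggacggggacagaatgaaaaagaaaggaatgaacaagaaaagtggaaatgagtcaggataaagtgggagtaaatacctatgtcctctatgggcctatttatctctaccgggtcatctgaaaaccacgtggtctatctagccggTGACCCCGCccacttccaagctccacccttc
Psmd14, chr2:61711444-61711693, plus strand: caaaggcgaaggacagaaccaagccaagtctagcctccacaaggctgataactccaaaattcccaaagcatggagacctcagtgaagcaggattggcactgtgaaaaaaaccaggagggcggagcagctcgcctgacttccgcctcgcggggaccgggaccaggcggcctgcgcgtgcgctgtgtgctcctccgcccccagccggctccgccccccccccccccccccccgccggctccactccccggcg
Psmd6, chr14:14120946-14121195, minus strand: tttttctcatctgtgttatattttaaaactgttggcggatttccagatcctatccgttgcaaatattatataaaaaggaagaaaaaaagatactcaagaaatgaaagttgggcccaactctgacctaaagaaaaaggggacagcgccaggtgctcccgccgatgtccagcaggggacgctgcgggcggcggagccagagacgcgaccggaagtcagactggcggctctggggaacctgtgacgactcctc
Psme1, chr14:55578244-55578493, plus strand: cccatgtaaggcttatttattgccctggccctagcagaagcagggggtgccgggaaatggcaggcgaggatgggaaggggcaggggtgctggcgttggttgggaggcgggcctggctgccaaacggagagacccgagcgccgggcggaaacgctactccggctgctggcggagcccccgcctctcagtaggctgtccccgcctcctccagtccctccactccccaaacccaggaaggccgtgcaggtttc
Psmb4, chr3:94886959-94887208, minus strand: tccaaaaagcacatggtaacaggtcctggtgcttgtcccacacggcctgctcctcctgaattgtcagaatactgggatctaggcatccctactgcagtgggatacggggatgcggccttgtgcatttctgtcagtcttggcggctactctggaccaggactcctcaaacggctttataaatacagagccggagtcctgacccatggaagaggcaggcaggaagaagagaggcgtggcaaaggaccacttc
Psmc4, chr7:28050093-28050342, minus strand: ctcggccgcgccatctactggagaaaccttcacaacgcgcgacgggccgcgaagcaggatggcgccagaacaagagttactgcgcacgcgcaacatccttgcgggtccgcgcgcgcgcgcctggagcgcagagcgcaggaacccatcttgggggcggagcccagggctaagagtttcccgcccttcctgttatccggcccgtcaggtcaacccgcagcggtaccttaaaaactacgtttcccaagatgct
Psmd4, chr3:95042615-95042864, minus strand: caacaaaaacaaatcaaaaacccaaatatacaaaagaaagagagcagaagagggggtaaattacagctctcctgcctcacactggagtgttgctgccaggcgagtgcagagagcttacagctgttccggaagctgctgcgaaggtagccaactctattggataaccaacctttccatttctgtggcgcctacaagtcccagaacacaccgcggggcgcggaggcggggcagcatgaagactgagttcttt
In Psmb6 the match TGACGGAGC ended at the last base before the start, in Psmd9 TGACCCCGC lay 31 to 23 bases before it, and in Psmb5, not shown, TGACGTCGC lay 47 to 39 bases before it. Psmc6 had TGACTTAGC and Psmd12 TGACACAGC on the other strand, the first 227 to 219 and the second 247 to 239 bases before the start. Of the 39 genes with an entry 5 had a match, which is 12.8%, and among all 27025 genes with an entry the share was 11.5%. The share was near that of promoters at large. All 5 matches fell among the 26 genes called lower, which make up most of the 39 and include Psmc3ip and Psme3ip1. The 10 not called and the 3 called higher held 0. At a share of 11.5% few matches would fall among so few genes, so that 0 does not set the groups apart. The split was not tested. The sequences of Psmd14, Psmd6 and Psme1, which were lower, hold no match, like those of Psmb4, Psmc4 and Psmd4. The letters CCAAT, on either strand, were found in 38.5% of the 39 genes and 37.5% of all, and the GC box GGGCGG in 56.4% and 35.4%. A match is a description of letters and shows no binding.

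Other genes of the pathway were read against the same shares of all genes, 36.9% lower and 21.8% higher. Of 11 measured factors that bind or mature the proteasome, 6 were lower and 2 higher, or 1 higher without ES-EP culture A. Zfand5, which activates the proteasome, was 2.04-fold lower (means 10.05 against 11.08). The proteasome-bound deubiquitinases Uchl5 and Usp14 were lower by -0.86 and -0.53. Akirin2, which brings proteasomes into the nucleus, was higher (0.47, limma adjusted p = 0.00207). Pomp, the maturation factor of the core, was at 11.56 and 11.57 in MEL and at 11.78 and 11.66 in ES-EP cells and was not called (-0.16, limma adjusted p = 0.157, and 0.0149 with an intensity trend in the prior).

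Among 12 measured genes that regulate proteasome genes, or the proteins that do so, 5 were lower and 5 higher. Nfe2l1, the factor that raises proteasome genes when the proteasome is overloaded, was at 8.88 and 8.92 in MEL and at 9.36 and 9.27 in ES-EP cells (-0.42 ± 0.08, SE, n = 2 per group, limma adjusted p = 0.00459). The groups did not overlap. Of the small Maf genes, whose products are its partners, Mafk and Mafg were lower by -0.99 and -0.88, and Maff, which was dim, differed by 0.10 (adjusted p = 0.339) and was not called. Ngly1, which removes sugars from Nfe2l1 so that it can act, was lower by -0.57. Syvn1 and Sel1l, of the ligase complex that keeps Nfe2l1 low in unstressed cells, were higher by 0.81 and 0.56. Foxo4, a forkhead factor, was 2.03-fold higher (means 9.32 against 8.30), and Keap1, which holds down the related factor Nfe2l2, was higher by 0.69. Nfe2l2 itself differed by 0.02 and was not called. Foxm1 was higher by 0.60, and Nfe2l3, with values near the array medians, was lower by -0.39. Whether any of these genes has a part in the differences of the proteasome genes was not tested.

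Vcp, the ATPase that extracts ubiquitinated proteins for the proteasome, was lower by -0.47, and of it and its cofactors 5 of 9 were lower and 2 higher, with 3 lower after quantile normalization and 3 without ES-EP culture B. Ubxn1 was the lowest of them at -0.66 and Faf2, a cofactor at lipid droplets and the endoplasmic reticulum, the highest at 0.52. Of 5 shuttle proteins that carry ubiquitinated substrates 0 were lower (limma, 0 also at an unadjusted p under 0.05) and 2 higher, Ubqln2 by 0.77 and Rad23b by 0.36. Without MEL culture B or ES-EP culture A 1 shuttle was higher, and without ES-EP culture B 1 was lower. Of the 6 listed genes for ubiquitin and its activating enzymes 1 was measured, Uba6, which was higher by 0.94. Of 7 peptidases that trim or degrade peptides after the proteasome 2 were lower and 2 higher, with Tpp2 at -0.56 and Lap3 at 0.58, and cyclic loess gave 4 higher, quantile normalization 3. The peptide transporter Tap1 was 3.96-fold higher, but its ES-EP values of 5.98 and 6.03 lay near the array medians, so this fold is uncertain. Of 8 measured interferon gamma targets, Tap1 among them, 4 were higher and 1 lower, B2m, the light chain of class I molecules, by -0.61. After median centring and without MEL culture A 2 were lower.

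**Figure D4:**
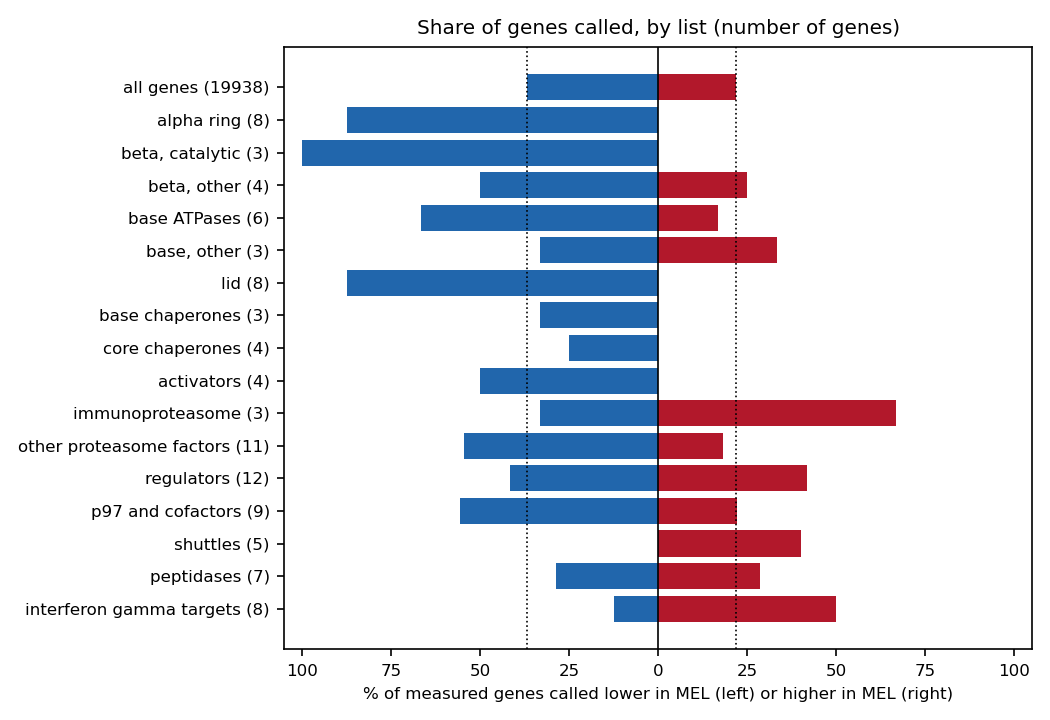
Share of the measured genes of each list called lower in MEL, to the left, or higher in MEL, to the right, in percent, with the number of genes in brackets. Dotted lines mark the shares of all 19938 genes, 36.9% and 21.8%. The alpha ring and the lid reach 87.5% lower and the catalytic beta genes 100%, while the shuttles and the interferon gamma targets lie mostly to the right.

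The median difference of the 47 genes kept its direction under each scaling, though its size moved. Single genes near 0 did not all do so. Psmd5 and Psme4, which were not called, went from -0.08 to 0.07 and from -0.04 to 0.12 after quantile normalization. Over all genes the median difference was -0.14 in the deposited values. It was -0.02 with quantile normalization, -0.07 with median centring and 0.02 with cyclic loess. The 47 genes had medians of -0.40, -0.25, -0.34 and -0.27 in that order, with 32, 25, 26 and 28 genes lower and 3, 4, 4 and 4 higher. The shares of all genes called lower were 36.9%, 28.6%, 28.8% and 24.5%, and the shares called higher 21.8%, 26.7%, 23% and 29%. Among the 3452 genes with a mean value of 9 to 12, a range chosen after the values were seen, 42.1% were lower and 25.3% higher. Of the 41 members in that range 27 were lower and 3 higher.

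**Figure D5:**
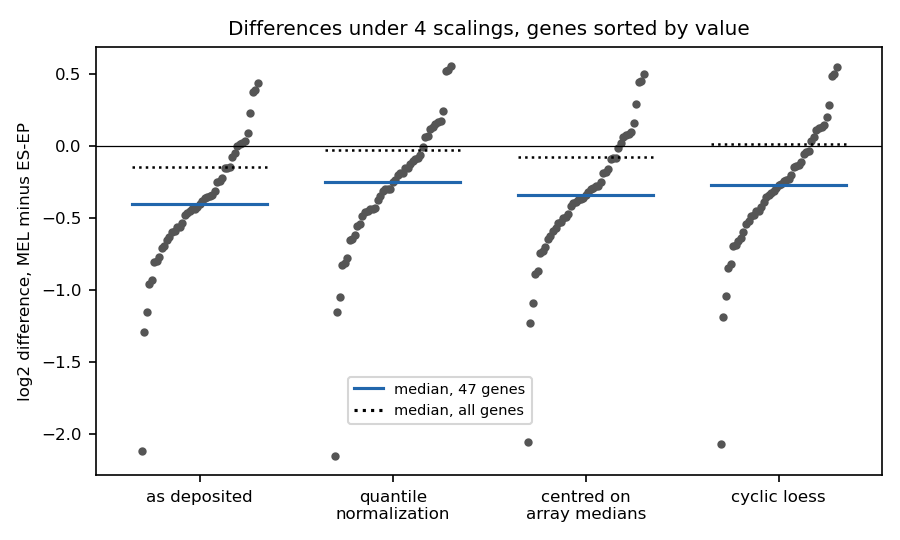
Log2 difference, MEL minus ES-EP, of the 47 genes under 4 scalings of the arrays, each sorted by value. Each point is 1 gene, the solid line is the median of the 47 and the dotted line that of all genes. The solid line lies below the dotted one in all 4, at -0.40, -0.25, -0.34 and -0.27.

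In all 5 genes had more than 1 feature annotated to them alone. Where in the genome each feature lies was not checked, so the brightest may measure a copy of the gene. The 3 features of Psma3 gave -0.38, -0.41 and -0.44 and the 2 of Psma5 -0.31 and -0.25, so these lay within 0.08 of each other, the size of their standard errors. The 2 of Psmb3 gave -0.34 and -0.67, a gap wider than those errors, as in Psmc1. Counted by feature, 37 of 53 were lower and 3 higher. The symbols that match by name alone were both lower. Psmc3ip was at 5.99 and 6.17 in MEL and at 8.21 and 8.19 in ES-EP cells, 4.34-fold lower (-2.12 ± 0.09, SE, n = 2 per group, limma adjusted p = 2.56e-06). Its MEL values lay near the medians of those arrays, 5.89 and 5.78, so this fold is uncertain. Psme3ip1 was lower by -0.48.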

How the data were processed

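The deposited log2 values come from Affymetrix Mouse Gene ST arrays and were summarized by the authors with robust multi-array averaging (RMA) in GeneSpring GX, per the labels. The submitters' processing notes also name RMA. That the scale is log2 follows from the range of the values. The software version, any filter and which arrays were normalized as 1 set are not stated in those sources. RMA compresses dim values and hides a change in total RNA per cell, and no detection calls were used. Control features (6613 of 35557) were left out. Gene names came from the platform annotation, updated through Entrez identifiers with RefSeq (GRCm38.p6).

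MEL and ES-EP arrays were fitted in limma 3.58.1 under R 4.3.3 (lmFit, eBayes, 2 residual and 5.15 prior degrees of freedom). Standard errors are moderated. The p-values measure the spread between duplicate cultures only, and 2 arrays per group limit the precision. Named genes are, per subcomplex and per list, the called genes with the largest difference in each direction, and the catalytic, activator, inhibitor and deubiquitinase genes, Psmb8, Psmb9, Psmb10, Pomp and Nfe2l1 whatever their result, with further members added for their values. Members and lists were chosen with earlier results of these data known. The alternatives were other scalings, priors, filters and feature rules, a block for the replicate letters, a criterion of 1.5-fold and each culture left out. The procedure was also run on simulated arrays with independent noise and few changed features. Here many features were called, so that run does not show the error rate in these data.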

Additional observations from a re-analysis of the deposited data

How the results depend on the processing

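The counts of 32 lower and 3 higher genes stayed within 1.5 times under the other scalings, priors, filters, feature rules and left-out cultures. They fell to 14 and 0 when at least 1.5-fold was asked (limma, 0 higher also at an unadjusted p under 0.05). The median difference of -0.40 moved to -0.25 after quantile normalization and -0.27 after cyclic loess. Leaving out 1 culture at a time gave 24 to 31 lower genes, 2 to 4 higher genes and medians of -0.45 to -0.36. Of the 35 called genes 26 kept their call under each of their other scalings, priors, filters, feature rules, block and left-out cultures, 24 of them lower and 2 higher, Psmb4 and Psmc4. The 1.5-fold criterion is not among these. The calls lost were those of Psma3, Psma5, Psma6, Psma8, Psmb3, Psmb7, Psmc3, Psmd3 and Psmd4. Irf1, an interferon target whose features disagree, differed by -0.15 and reversed to 0.56 with the mean of its features. The replicate block left 32 lower, 3 higher and a median of -0.40. The letters A and B are shared labels, and with 2 of them the correlation of same-letter deviations, 0.110, does not show that the cultures are paired. Counting features in place of genes and leaving out the 2 genes that match by name alone were chosen after seeing the data. Without detection calls, values near the low end, as for Psma8 and Psmb11, cannot be told from background.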
